A study of Mus musculus with 8 samples.

Results

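The data described here are the signals of 3 matrix metalloproteinase mRNAs, *Mmp3*, *Mmp9* and *Mmp13*, which were chosen by name among 67 target mRNAs measured in mouse knee joints. *Mmp3* and *Mmp13* belonged to a first panel of 33 target mRNAs, and *Mmp9* to a second panel of 34. The joints came from 8 inbred strains with 3 to 4 mice each. LG/J, MRL/MpJ and LGXSM-6 are labelled healers, LGXSM-5 and LGXSM-35 intermediate healers, and SM/J, C57BL/6J (labelled C57BL6/J) and LGXSM-33 non-healers. The 4 LGXSM lines are recombinant inbred lines, each carrying a mixture of LG/J and SM/J alleles. All the mice shared the same injury, a full-thickness cartilage defect made in the trochlear groove at 8 weeks of age, and all joints were harvested 16 weeks after the surgery. There was no uninjured joint, so the values compare strains and not injured with intact tissue. The labels name no sex, litter or batch, and each strain is 1 GEO sample whose signals cannot be tied to single mice.

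Matrix metalloproteinases are zinc-dependent enzymes that are secreted as inactive precursors and cut the proteins of the extracellular matrix. *Mmp3* encodes stromelysin-1, which degrades proteoglycans and other non-collagenous matrix proteins and activates the precursors of other metalloproteinases. *Mmp13* encodes collagenase-3, which cuts the triple helix of fibrillar collagens, type II collagen of cartilage above all, and is made by hypertrophic chondrocytes and osteoblasts. *Mmp9* encodes gelatinase B, which degrades denatured collagen and is made by osteoclasts, neutrophils and macrophages. In joints these enzymes act in growth plate turnover, in bone remodelling and in the loss of matrix in arthritis.

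In the RefSeq annotation of GRCm38.p6, *Mmp3* and *Mmp13* lie on chromosome 9, in 1 cluster of metalloproteinase genes with 2 other protein-coding genes between them, and *Mmp9* lies on chromosome 2. The 250 bases before the annotated start of *Mmp3* (chr9:7445572-7445821) and of *Mmp13* (chr9:7272264-7272513) are shown because these promoters are known to answer to AP-1, and that of *Mmp13* also to RUNX2, whose mRNA is in the same panel. Both genes are on the plus strand, the sequence is that of C57BL/6J, 1 of the strains measured, and the capitals mark matches to the AP-1 motif TGACTCA and the RUNX motif ACCACA, searched on both strands.
Mmp3: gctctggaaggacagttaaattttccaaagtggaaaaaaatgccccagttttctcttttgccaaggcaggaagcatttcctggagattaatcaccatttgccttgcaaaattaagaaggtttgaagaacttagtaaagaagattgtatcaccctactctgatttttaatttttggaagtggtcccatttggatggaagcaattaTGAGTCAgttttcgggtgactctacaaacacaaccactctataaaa
Mmp13: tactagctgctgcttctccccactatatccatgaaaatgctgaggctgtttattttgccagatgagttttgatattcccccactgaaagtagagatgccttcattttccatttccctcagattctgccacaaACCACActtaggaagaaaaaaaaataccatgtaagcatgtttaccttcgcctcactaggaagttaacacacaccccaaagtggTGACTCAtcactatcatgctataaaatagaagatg
Each window held 1 AP-1 match, which began 46 bases before the start site in *Mmp3* and 35 bases before it in *Mmp13*. The *Mmp13* window also held 1 RUNX match, 118 bases before the start site, and the *Mmp3* window held none. Of 32851 RefSeq windows of the same length, 4.46% held the AP-1 motif and 14.05% the RUNX motif. These matches describe letters in the reference sequence, and no variant of the other strains was examined.

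The assay was QuantiGene Plex, in which each mRNA of a homogenate is held on a bead of its own colour code and is lit up by branched DNA. The homogenates came from 25 formalin-fixed, paraffin-embedded sections of 5 µm per strain and held bone, cartilage, meniscus, growth plate, capsule and synovium together, so that fewer cells of a type and less mRNA per cell cannot be told apart. The main matrix markers of cartilage and bone gave clear signals in all strains: the median signal was 3358 for *Col2a1* (lowest strain median 1181), 272 for *Acan* (54), 24458.5 for *Col1a1* (17789) and 1531 for *Bglap1* (994). The cartilage markers *Sox9* and *Mia1* were far lower, with medians of 38.5 and 31 and a lowest strain median of 18.5 for each, and *Ihh* gave 11. As raw signals, the strain medians of *Col2a1*, *Acan*, *Comp*, *Sox9* and *Mia1* were all lowest in SM/J and, except for *Comp*, highest in LGXSM-6. The raw signals of the reference genes *Hprt1* and *Actb* were lowest and highest in the same strains. On the normalized scale described below, the mean of *Col2a1* was lowest in MRL/MpJ and those of *Acan* and *Comp* in LGXSM-5. The fat markers *Lep* and *Retn* were near the bottom of the scale, with median signals of 11 and 8, and *Adipoq* gave 31.5. The macrophage chemokine *Ccl3* had strain medians from 58 in SM/J to 466 in LGXSM-35. The part of tissue composition in the differences below was not tested.

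The 3 mRNAs were read at very different levels. *Mmp13* gave a median signal of 838 over 76 assay replicates (range 79 to 3590.5), the 6th highest of the 33 mRNAs of its panel. *Mmp9* gave 317 over 78 assay replicates (range 16.5 to 1275), the 3rd highest of 34. *Mmp3* gave 33.8 over 76 assay replicates (range 6 to 287), the 24th of 33, and 1 of its signals was under 10. Signals of different probes are not on 1 molar scale, so these ranks say how far each mRNA stood above the low end of its panel, not which enzyme was most abundant. The methods set a fixed number of bead events to be read per mRNA, but the files hold no bead count for a signal, so no counting interval was set on a single value.

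Within strains the signals often fell into runs of 3 consecutive numbers with close values and a gap to the next run, though not everywhere: *Mmp3* and *Mmp13* of LGXSM-5 showed no gap between the last 2 runs, nor *Mmp3* of C57BL/6J between the first 2. The counts of 9 and 12 signals per strain are 3 times the 3 and 4 mice named in the methods. The paper also describes 3 repeat measures of single individuals, so that a run may well be 1 mouse, but the files do not say so. The following results are therefore given over assay replicates, as the files present them, and again over the means of these runs, 26 in each panel. P values over assay replicates measure the spread between repeated signals, which may be technical, and are too small where a run is 1 animal. In the first panel LG/J and SM/J have 8 signals each, and the run of 2 was placed where the reference genes varied least. In the second panel, signal 6 of LG/J was nearer in *Mmp9* to the following run than to its own (241, against 403 and 483 for signals 4 and 5), and the numbering was kept.

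*Mmp3* signals were low and uneven between runs. In LG/J the *Mmp3* signals were 34.5, 30, 20, 16, 19, 39, 46 and 45. In SM/J they were 10, 6, 14, 14, 15, 17, 21.5 and 26, and in C57BL/6J 15, 13, 14, 11, 12, 13, 19, 22.5 and 18, the 2 lowest strains. The healer MRL/MpJ gave 76, 85 and 79 in its first run, 32, 30 and 33 in its second and 106, 109 and 90.5 in the last. LGXSM-5 showed the widest gap, with 132, 129 and 140 in its first run against 26, 17.5, 18, 25, 17 and 17.5 in the 6 signals that followed. The second intermediate healer, LGXSM-35, stayed between 12 and 38.5. Runs of 1 strain could thus differ as much as strains did. In LGXSM-6 the lowest, median and highest signals were 38, 85.3 and 287, and in LGXSM-33 they were 39.5, 59 and 118. The 4 runs of LGXSM-6 averaged 108, 41.0, 67.0 and 236, so that its last run alone carried the highest *Mmp3* signals of the study.

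*Mmp13* was read well above the low end of the scale in every strain. The lowest signal of LGXSM-6 was 1624.5, its median 2781.5 and its highest 3590.5, and only MRL/MpJ among the other strains reached this range, in its last run. MRL/MpJ gave run averages of 612, 854 and 2506. Both parental strains lay lower. In LG/J the signals were 772, 675, 726, 773, 843, 1514, 1606 and 1551, and in SM/J they were 522, 537, 108.5, 94.5, 79, 370, 497 and 522. In C57BL/6J they were 274, 276, 284, 414, 341, 281, 750, 602 and 646.5. LGXSM-33 had run averages of 715, 1087, 571 and 1231, LGXSM-5 of 515, 1032 and 951, and LGXSM-35 of 879, 1039 and 478. The lowest *Mmp13* signals, 79 to 108.5, were signals 3 to 5 of SM/J, where *Gapdh* also gave 1471 to 1891 against a median of 12528 in the panel.

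The highest median *Mmp9* signals were those of LGXSM-6, C57BL/6J and MRL/MpJ. LGXSM-6 had a lowest, median and highest value of 330, 526 and 1275, and MRL/MpJ of 201, 486 and 923. C57BL/6J gave 507, 527.5, 439.5, 272, 260, 290.5, 528, 612 and 639. LG/J gave 198.5, 211, 205.5, 403, 483, 241, 292, 313.5 and 381, and SM/J gave 147.5, 163, 159.5, 31.5, 16.5, 20, 103, 119.5 and 147. The middle run of SM/J was the lowest of all, and *Gapdh* in the same 3 signals gave 346 to 497 against a panel median of 3063. LGXSM-5 held 105.5, 75 and 72 in its first run and 254 to 332 afterwards, and LGXSM-35 the reverse, with 314.5 to 430 in its first 6 signals and 102 to 116 in its last 3. LGXSM-33 held 77 to 197 in its first 9 signals and 566 to 593.5 in its last 3. Every strain overlapped at least 1 other in raw *Mmp9* signal.

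**Figure D1:**
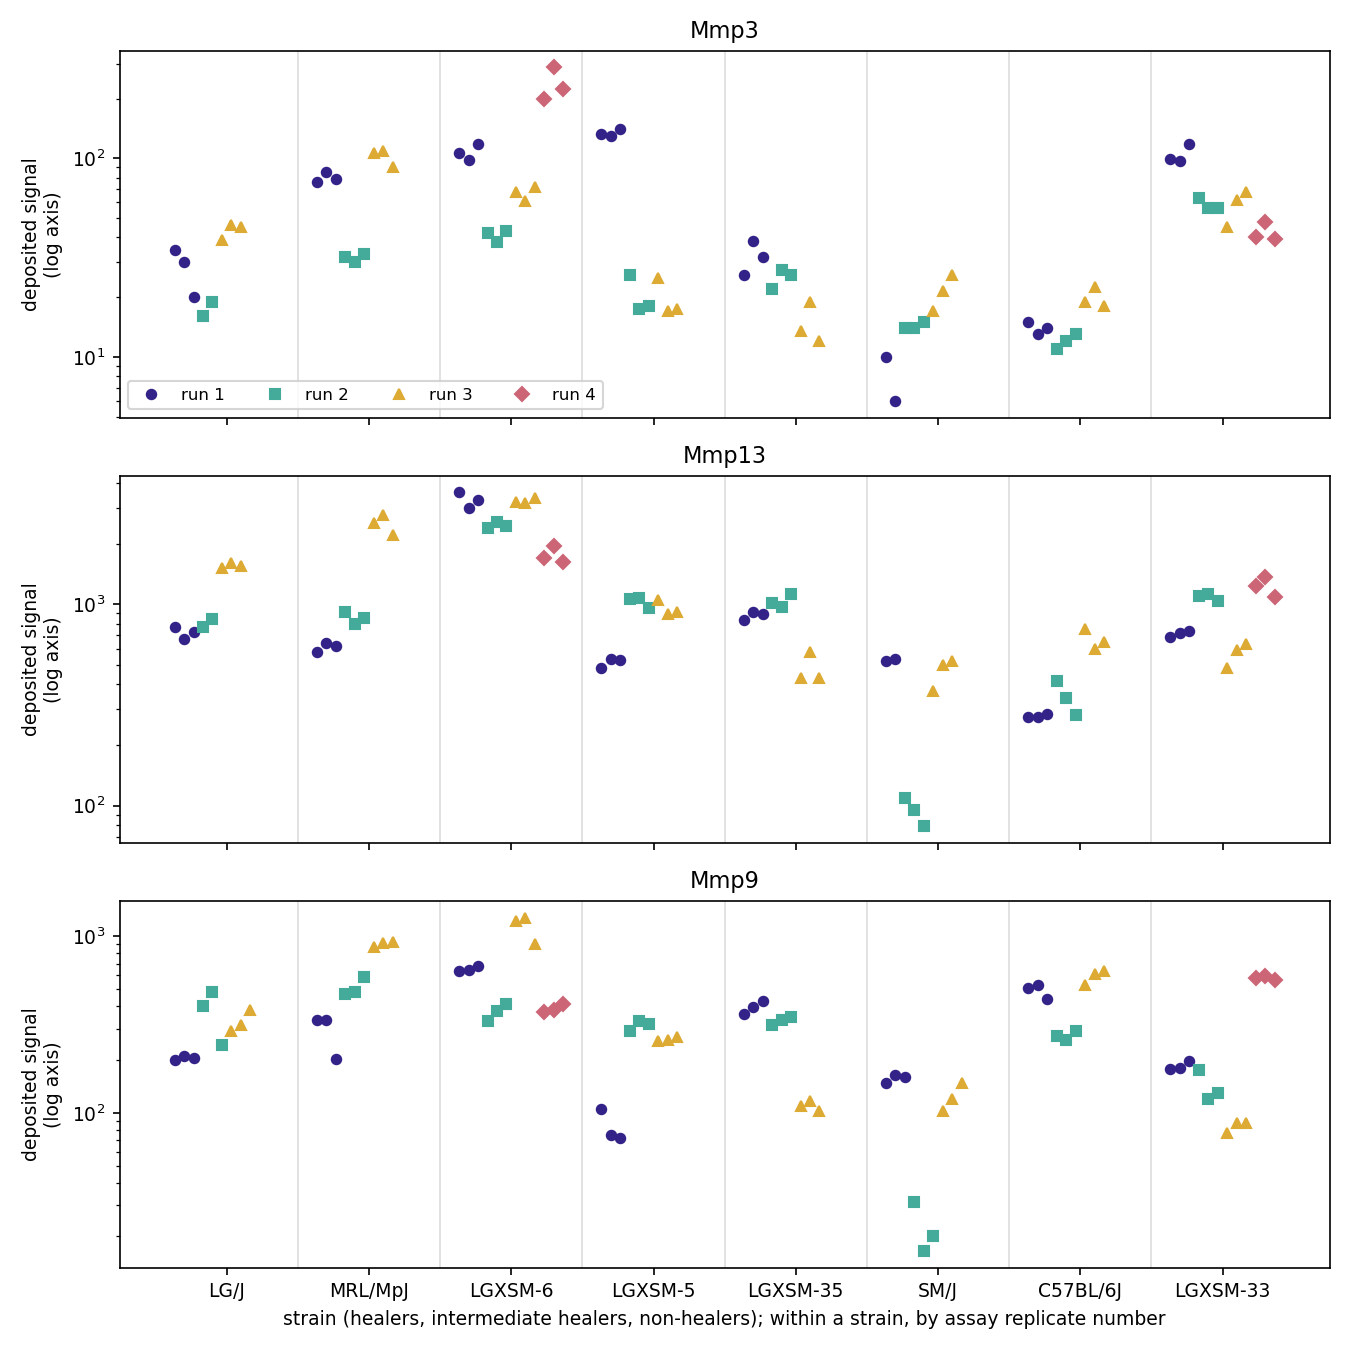
Deposited signals of *Mmp3*, *Mmp13* and *Mmp9* on a log axis, with 1 point per assay replicate, strains along the x axis and colours and marker shapes for runs of consecutive numbers. Signals of a run lie close together, while runs of 1 strain can be far apart, as in *Mmp3* of LGXSM-5 (run averages 134, 20.5 and 19.8).

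The reference genes differed between strains as well. In the first panel the median *Hprt1* signal ran from 72.75 in SM/J to 322.5 in LGXSM-6 and that of *Actb* from 2634.75 to 14508.5 in the same strains. That of *Gapdh* ran from 5504 in C57BL/6J to 18668 in LGXSM-6, with 13147.5 in SM/J. Raw signals can thus mix the amount of tissue with the level of the target, but the reference genes did not order the strains alike. The cause of their differences was not tested. The deposited normalized value is the residual of a target's log10 signal regressed on *Gapdh*, *Hprt1* and, in the first panel, *Actb*, and is given here in log2 units, in which 1 unit is a doubling. The reference genes accounted for 75.7% of the variance of the *Mmp13* signal and 80.8% of that of *Mmp9*, but for 16.1% of that of *Mmp3*. For *Mmp13* the fitted slopes summed to 1.01, close to a plain ratio. For *Mmp9* the slope was 1.28 on *Hprt1* and -0.39 on *Gapdh*, so that for a given *Mmp9* signal more *Gapdh* meant a higher normalized value, and a plain ratio to the reference genes gave other results for some strains, as stated below.

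On the normalized scale *Mmp3* was highest in LGXSM-6 and lowest in C57BL/6J, a difference of 1.72 in log2 or 3.31-fold. Its strain means were 0.86 ± 1.06 (SD, n = 12 assay replicates) in LGXSM-6, 0.74 ± 0.71 (n = 12) in LGXSM-33, 0.61 ± 0.92 (n = 9) in MRL/MpJ, -0.09 ± 1.60 (n = 9) in LGXSM-5 and -0.13 ± 0.52 (n = 8) in LG/J. The lowest were -0.78 ± 0.91 (n = 8) in SM/J, -0.85 ± 0.32 (n = 9) in LGXSM-35 and -0.86 ± 0.25 (n = 9) in C57BL/6J. None of the 7 neighbouring pairs in this order passed at an adjusted P of 0.05 (limma). The order joined a healer and a non-healer line at the top, LGXSM-6 and LGXSM-33. The median *Mmp3* signals of C57BL/6J and SM/J, 14 and 14.5, were near the low end of the panel, where *Col6a6* gave 11 and *Il6* 9. In signals 3 to 5 of SM/J, where *Gapdh* was low, *Mmp3* stayed at 14 to 15 and its residuals were -0.10 to 0.14. Whether a floor of the assay limits the fold was not tested. Without its last run the mean of the LGXSM-6 runs fell from 0.86 to 0.31, and without its first run that of LGXSM-5 fell from -0.09 to -1.15. In the ratio to the reference genes LGXSM-33 was highest and SM/J stood 0.18 above the mean of the strains, where the residuals put it at -0.72. The deposited residual of signal 9 of LGXSM-35 was -0.29, where a recomputation from the deposited signals gave -1.42, and with the recomputed value the mean of LGXSM-35 was -0.98, below C57BL/6J.

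*Mmp13* was highest in LGXSM-6 and LG/J and lowest in C57BL/6J, with 2.36-fold between the first and the last. The strain means were 0.62 ± 0.40 (SD, n = 12 assay replicates) in LGXSM-6 and 0.57 ± 0.28 (n = 8) in LG/J, whose difference did not pass the test (0.06 ± 0.17, SE, adjusted P = 0.841, limma). They were followed by 0.12 ± 0.51 (n = 12) in LGXSM-33, -0.09 ± 0.21 (n = 8) in SM/J, -0.11 ± 0.70 (n = 9) in MRL/MpJ and -0.15 ± 0.10 (n = 9) in LGXSM-5. LGXSM-35 at -0.52 ± 0.08 (n = 9) and C57BL/6J at -0.62 ± 0.23 (n = 9) closed the order. Of the 7 neighbouring pairs, only LG/J and LGXSM-33 passed the test over assay replicates (adjusted P = 0.0431), and none did over run means. MRL/MpJ spread over 1.61 log2 units between its runs, and LGXSM-5 over 0.11. LGXSM-6 and LG/J were also the highest with the plain ratio, where LGXSM-35 (-0.53 from the mean of the strains) came just under C57BL/6J (-0.52).

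*Mmp9* showed another order, with the non-healer C57BL/6J at the top and the 2 intermediate healers at the bottom. Its means were 0.85 ± 0.20 (SD, n = 9 assay replicates) in C57BL/6J, 0.35 ± 0.17 (n = 9) in LG/J and 0.35 ± 0.30 (n = 9) in MRL/MpJ. LGXSM-33 followed at 0.10 ± 0.17 (n = 12), LGXSM-6 at -0.07 ± 0.21 (n = 12) and SM/J at -0.26 ± 0.43 (n = 9). LGXSM-35 stood at -0.66 ± 0.18 (n = 9) and LGXSM-5 at -0.73 ± 0.20 (n = 9), 1.59 in log2 below C57BL/6J. The step from C57BL/6J to LG/J (0.50 ± 0.11, SE, adjusted P = 3.8e-04) and that from SM/J to LGXSM-35 (0.40 ± 0.11, adjusted P = 0.00451) passed over assay replicates, and neither passed over run means. C57BL/6J was also highest in the ratio to the reference genes, at 1.36 above the mean of the strains, while SM/J and LGXSM-33 were then lowest, at -0.77 and -0.66. Without normalization LGXSM-6 was highest, at 1.11, and C57BL/6J stood at 0.71.

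**Figure D2:**
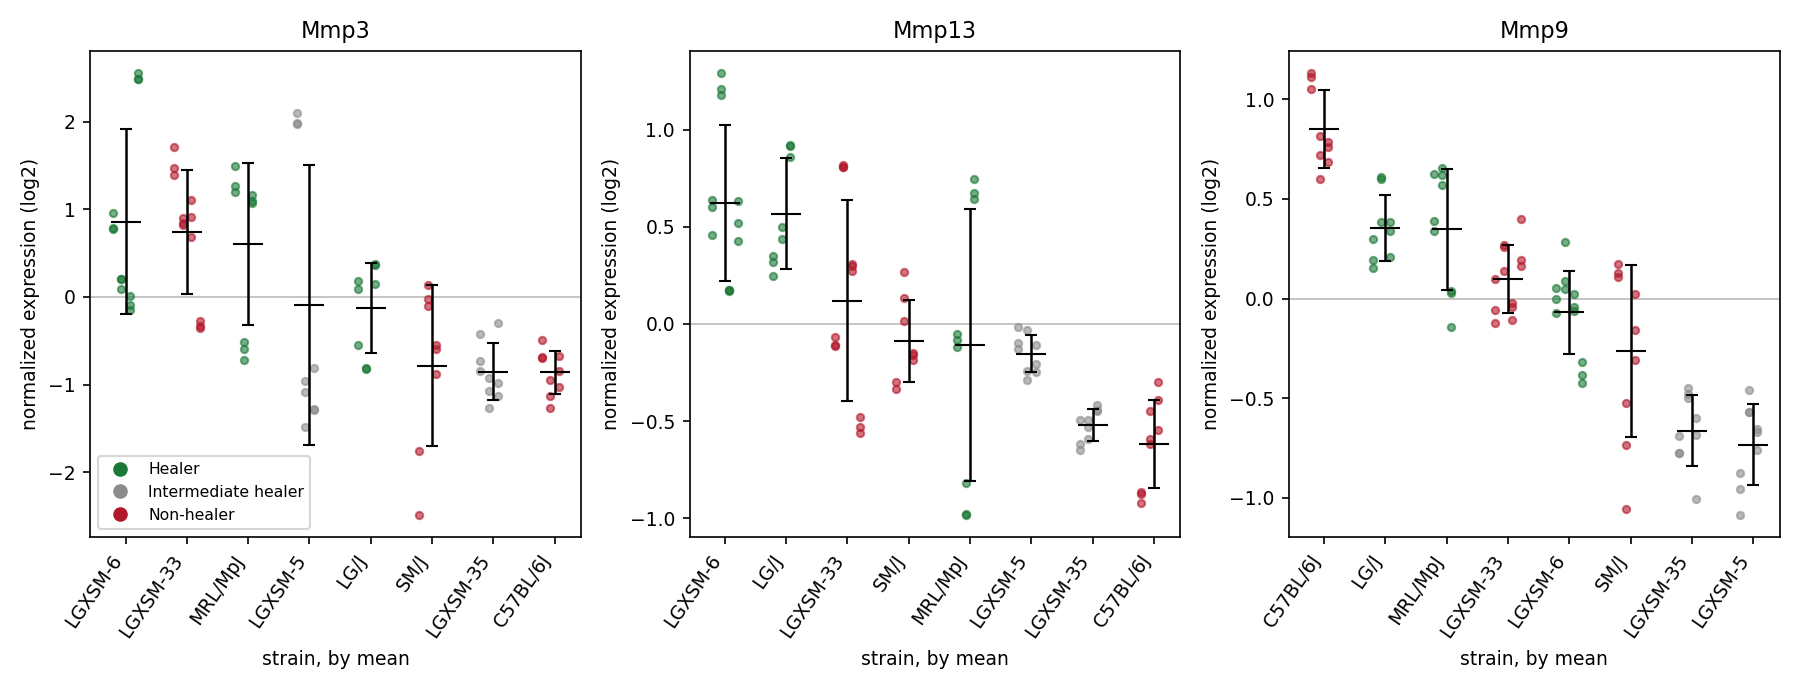
Normalized expression (log2 of the residual) of *Mmp3*, *Mmp13* and *Mmp9* by strain, ordered by the strain mean, with 1 point per assay replicate and black marks for mean ± SD (n = 8 to 12). The order differs between the mRNAs, and C57BL/6J is last for *Mmp3* and *Mmp13* and first for *Mmp9*.

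Variance was divided into parts between strains, between runs of a strain and within runs. For *Mmp9* 77.3% of the variance lay between strains and 18.9% between runs, so that only 1 of the 67 mRNAs, *Atg7*, had a larger share between strains. For *Mmp13* the shares were 43.9% and 54.7%, and for *Mmp3* 19.8% and 77.0%. The median over all 67 mRNAs was 14.6% between strains and 55.9% between runs. The share within runs was small, with 3.15% of the variance of *Mmp3*, 1.43% of that of *Mmp13* and 3.71% of that of *Mmp9* against a median of 19.5% over all mRNAs. The SD within runs was 0.20 in log2 for *Mmp3*, 0.07 for *Mmp13* and 0.11 for *Mmp9*. For *Mmp3* the small share stood beside an SD of 0.99 between runs. When assay replicates were taken as units and runs ignored, the share between strains (H2) was 81.7% ± 10.4 (jackknife SE over 8 strains) for *Mmp9*, 56.4% ± 18.9 for *Mmp13* and 37.4% ± 15.2 for *Mmp3*. H2 of *Mmp3* was 16.9% with the plain ratio, 21.9% over run means and 60.7% without normalization, and that of *Mmp9* was 51.9% without normalization.

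**Figure D3:**
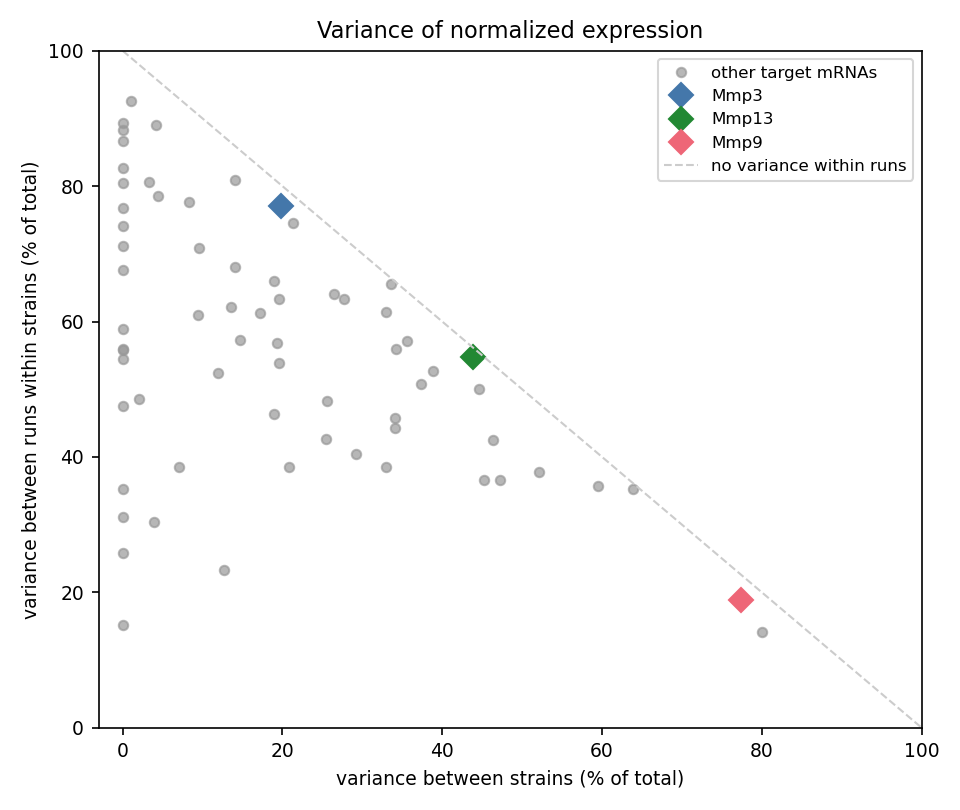
Share of the variance of normalized expression between strains (x axis, %) and between runs within strains (y axis, %) for 67 mRNAs, with the distance below the dashed line as the share within runs. *Mmp9* lies far to the right at 77.3% between strains, *Mmp13* at 43.9% and *Mmp3* at 19.8%, and all 3 lie close to the line.

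The first comparison asked whether the strains differed at all. Over assay replicates each of the 3 mRNAs passed the moderated F test of limma, with adjusted P of 5.5e-23 for *Mmp9*, 4.4e-10 for *Mmp13* and 7.6e-06 for *Mmp3*, where 82.1% of all 67 mRNAs passed. Over run means 14.9% of all mRNAs passed, among them *Mmp9* (adjusted P = 6.0e-06) and *Mmp13* (adjusted P = 0.0477), and *Mmp3* did not (adjusted P = 0.201). With 28 pairs of strains, *Mmp9* differed in 22, *Mmp13* in 17 and *Mmp3* in 9 over assay replicates, where 29.5% of all 1876 tests passed. Over run means *Mmp9* differed in 12 pairs, *Mmp13* in 2 and *Mmp3* in 0, where 3.2% of all tests passed. At an unadjusted threshold of 0.05, 6 pairs of *Mmp3* passed over run means, where 16.2% of all 1876 tests did. The 12 pairs of *Mmp9* were the most of any mRNA, a count shared with 1 other mRNA. Counting pairs in which no assay replicate of 1 strain reached those of the other, *Mmp9* had 13, *Mmp13* 9 and *Mmp3* 3, where 7.25% of all mRNA and strain pairs were separate in this way.

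The *Mmp9* differences lay at the 2 ends of the order. C57BL/6J was above LGXSM-5 by 1.59 ± 0.20 (SE over run means, adjusted P = 3.5e-05), above LGXSM-35 by 1.51 ± 0.20 (adjusted P = 3.5e-05) and above SM/J by 1.11 ± 0.20 (adjusted P = 0.00153). It was also above LGXSM-6 by 0.92 ± 0.19 (adjusted P = 0.00491) and above LGXSM-33 by 0.75 ± 0.19 (adjusted P = 0.0228). LG/J and MRL/MpJ each exceeded both intermediate healers, by 1.01 to 1.09 with adjusted P from 0.00191 to 0.00383. LGXSM-33 exceeded LGXSM-5 by 0.83 ± 0.19 (adjusted P = 0.0116) and LGXSM-35 by 0.76 ± 0.19 (adjusted P = 0.0217), and LGXSM-6 exceeded LGXSM-5 by 0.67 ± 0.19 (adjusted P = 0.0484). In the ratio to the reference genes, tested over assay replicates, 10 of these 12 pairs passed in the same direction, and the 2 pairs of LGXSM-33 with the intermediate healers turned. Without any normalization 9 of the 12 kept their direction and 6 of them passed.

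For *Mmp13* the 2 pairs that passed over run means both had LGXSM-6 as the higher strain, against C57BL/6J (1.24 ± 0.31, SE, adjusted P = 0.0319) and against LGXSM-35 (1.14 ± 0.31, adjusted P = 0.0484). Both pairs also passed, over assay replicates, with the plain ratio and without normalization. LG/J exceeded the same 2 strains, by 1.18 and 1.09 over assay replicates (adjusted P = 4.6e-07 and 3.2e-06), with adjusted P of 0.0618 and 0.0946 over run means. For *Mmp3* the 9 pairs called over assay replicates were those of LGXSM-6, LGXSM-33 and MRL/MpJ over SM/J, C57BL/6J and LGXSM-35. They ranged from 1.39 to 1.72 in log2, and their adjusted P over run means from 0.214 to 0.370. With the plain ratio 4 of the 9 passed, and all 9 kept their direction.

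The study set healers beside non-healers, and 3 pairs of a healer and a non-healer strain were compared: LG/J with SM/J, MRL/MpJ with C57BL/6J, and the sister lines LGXSM-6 with LGXSM-33. *Mmp13* was higher in the healer of each pair over assay replicates, by 0.66 ± 0.19 (SE, adjusted P = 0.00563) or 1.58-fold in LG/J, by 0.51 ± 0.18 (adjusted P = 0.0245) or 1.42-fold in MRL/MpJ, and by 0.50 ± 0.16 (adjusted P = 0.00981) or 1.42-fold in LGXSM-6. The shares of all mRNAs that passed in these pairs were 28.4%, 17.9% and 22.4%. The call in MRL/MpJ was lost with residuals on *Gapdh* and *Hprt1* alone (adjusted P = 0.0829) and with Tukey's test over assay replicates (adjusted P = 0.108), and the exact permutation test of this difference gave P = 0.0571. Over run means none of the 3 passed for *Mmp13* (adjusted P = 0.340, 0.505 and 0.443). The SE was then between 0.29 and 0.34. The share of all mRNAs that passed over run means was 0% in the first pair and 1.49% in each of the others. Leaving out 1 run at a time, the *Mmp13* difference stayed above 0 in each pair, from 0.50 to 0.80 for LG/J and SM/J, 0.11 to 0.92 for MRL/MpJ and C57BL/6J and 0.29 to 0.73 for LGXSM-6 and LGXSM-33. The value of 0.11 was that without the third run of MRL/MpJ, whose signals were 2196 to 2781.

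*Mmp9* did not follow healing in the same way. It was higher in the healer LG/J than in SM/J, by 0.61 ± 0.11 (SE, adjusted P = 1.5e-05, 1.53-fold), and lower in the healer MRL/MpJ than in C57BL/6J, at -0.50 ± 0.11 (adjusted P = 3.4e-04), where the non-healer was 1.42-fold higher. The difference between LGXSM-6 and LGXSM-33 was -0.17 ± 0.10 (adjusted P = 0.208), and its exact permutation test over assay replicates gave P = 0.0438. Over run means the adjusted P were 0.0989, 0.204 and 0.725. Without the 3 SM/J signals of low *Gapdh*, the excess of LG/J fell to 0.36 (adjusted P = 0.00733). The sign of the third pair depended on the scaling: *Mmp9* was higher in LGXSM-6 than in LGXSM-33 by 0.96 in the ratio to the reference genes (adjusted P = 4.8e-09) and by 1.60 without normalization (adjusted P = 1.1e-04). In the second panel the median *Gapdh* signals of these lines were 4347 and 3962, and those of *Hprt1* 228 and 83.3. Without normalization the difference of MRL/MpJ and C57BL/6J was 0.24 (adjusted P = 0.647) in place of -0.50, and with the plain ratio it was -0.84 (adjusted P = 3.1e-06). Leaving out 1 run at a time, the *Mmp9* differences of the 3 pairs ran from 0.36 to 0.81, from -0.64 to -0.32 and from -0.24 to -0.06. The value of -0.32 was that without the third run of MRL/MpJ.

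*Mmp3* was higher in MRL/MpJ than in C57BL/6J by 1.47 ± 0.41 (SE, adjusted P = 0.00415, 2.77-fold) over assay replicates. Over run means the SE was 0.77 and the adjusted P 0.367, and with the plain ratio the difference was 1.09 (adjusted P = 0.0978). In the other pairs *Mmp3* differed by 0.66 ± 0.44 between LG/J and SM/J (adjusted P = 0.268) and by 0.12 ± 0.36 between LGXSM-6 and LGXSM-33 (adjusted P = 0.834). Both turned in sign with the plain ratio, to -0.14 and -0.46. The last pair also turned without the fourth run of LGXSM-6, to -0.43. The difference of LG/J and SM/J, 0.73 over run means, was 0.13 without the first run of SM/J and 1.199 without its second, and 1.13 over assay replicates without the low *Gapdh* signals (adjusted P = 0.0724).

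**Figure D4:**
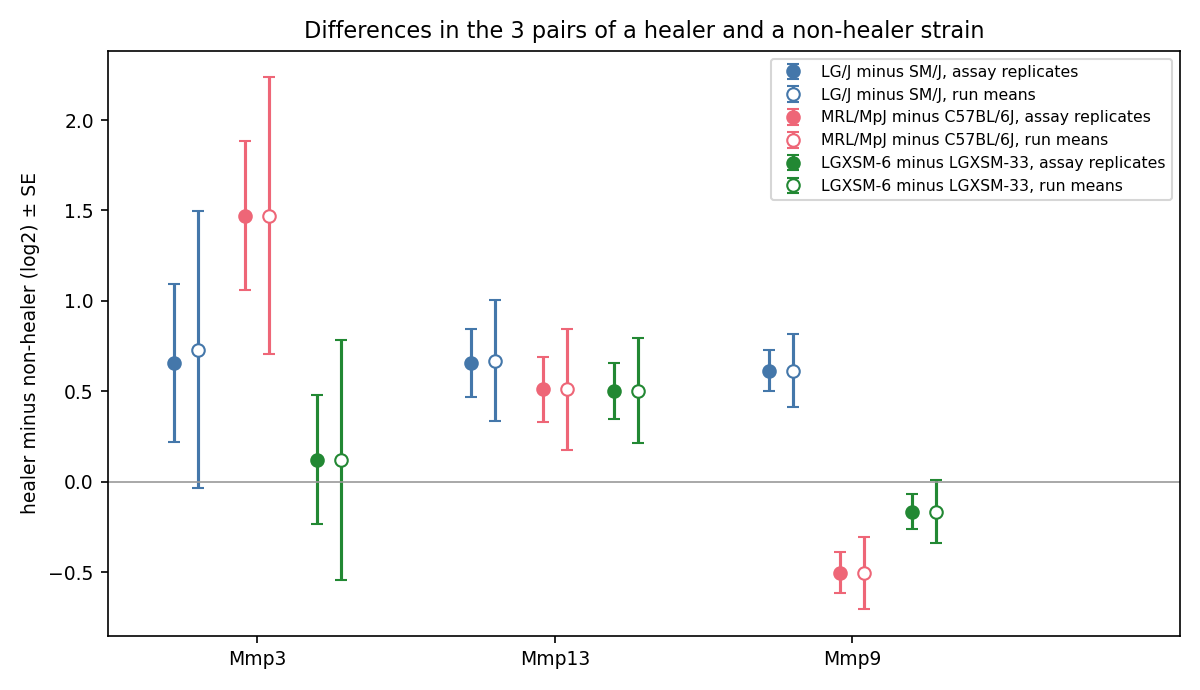
Difference of normalized expression (log2, healer minus non-healer) in 3 pairs of strains for *Mmp3*, *Mmp13* and *Mmp9*, with filled points for the fit over assay replicates, open points for the fit over run means and bars for SE. *Mmp13* is above 0 in each pair (0.50 to 0.66), and *Mmp9* is at 0.61, -0.50 and -0.17.

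Whether the 3 pairs differed from each other was tested directly. For *Mmp9* the difference of LG/J and SM/J exceeded that of MRL/MpJ and C57BL/6J by 1.12 ± 0.16 (SE, adjusted P = 7.4e-08), where 7.46% of all mRNAs passed. The same test passed over run means (adjusted P = 0.0369), with *Mmp9* the 1 mRNA called among 67, or 1.49%. It also exceeded that of LGXSM-6 and LGXSM-33 by 0.78 ± 0.15 (adjusted P = 4.0e-05), where 20.9% of all mRNAs passed, but over run means the adjusted P was 0.143 and 0% of all mRNAs passed. With the plain ratio the first of these was 2.00 (adjusted P = 3.7e-13) and the second 0.21 (adjusted P = 0.602). Without normalization the first was 1.71 (adjusted P = 0.124). For *Mmp13* the 3 pairs differed by 0.01 to 0.15, with SE from 0.24 to 0.26 and adjusted P from 0.706 to 0.977. For *Mmp3* the pair of MRL/MpJ and C57BL/6J exceeded that of LGXSM-6 and LGXSM-33 by 1.35 ± 0.55 (adjusted P = 0.0887), where 13.4% of all mRNAs passed over assay replicates and 1.49% over run means.

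Set against their parental strains, 2 of the 4 recombinant lines, LGXSM-5 and LGXSM-35, went outside the range of LG/J and SM/J for *Mmp9* over assay replicates, and 0 over run means. For *Mmp3* and *Mmp13* lines did so only under other processing. LGXSM-5 was below LG/J by 1.09 ± 0.11 (SE, adjusted P = 1.9e-12) and below SM/J by 0.47 ± 0.11 (adjusted P = 7.7e-04). LGXSM-35 was below LG/J by 1.02 ± 0.11 (adjusted P = 2.5e-11) and below SM/J by 0.40 ± 0.11 (adjusted P = 0.00451). Both lines stayed below both parents without the low SM/J signals. Over run means they differed from LG/J (adjusted P = 0.00191 and 0.00383) but not from SM/J (0.233 and 0.333), and as a ratio to the reference genes neither was outside. Of all 268 combinations of an mRNA and a line, 14.2% were outside both parents over assay replicates and 0.373% over run means. For *Mmp13* LGXSM-6 differed from SM/J by 0.71 (adjusted P = 9.1e-04) and from LG/J by 0.06 (adjusted P = 0.841), and the other 3 lines had lower means than LG/J. The difference from SM/J had an adjusted P of 0.245 over run means. For *Mmp3* LGXSM-6 and LGXSM-33 exceeded SM/J by 1.65 and 1.52 (adjusted P = 8.6e-04 and 0.00207), and LG/J by 0.99 and 0.87 (adjusted P = 0.0527 and 0.0951). Over run means the differences from SM/J had adjusted P of 0.214 and 0.246.

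With strain means as units, 3 healers were compared with 3 non-healers. *Mmp13* averaged 0.36 in healers (from -0.11 to 0.62) and -0.20 in non-healers (from -0.62 to 0.12), a difference of 0.56 ± 0.26 (SE, adjusted P = 0.571). *Mmp3* averaged 0.45 in healers (from -0.13 to 0.86) and -0.30 in non-healers (from -0.86 to 0.74), a difference of 0.75 ± 0.45 (adjusted P = 0.612). *Mmp9* averaged 0.21 and 0.23, a difference of -0.02 ± 0.26 (adjusted P = 0.944). On the residual scale the 2 intermediate healers had lower *Mmp9* than all 6 other strains. SM/J and LGXSM-33 lay below both of them with the plain ratio and without normalization. The difference of healers and non-healers was, with the plain ratio, 0.43 for *Mmp9* and 0.16 for *Mmp3*, and without normalization that of *Mmp9* was 1.26. The strain ranges of healers and non-healers overlapped for each of the 3 mRNAs. Of all 67 mRNAs 0% passed after adjustment, with 4 at an unadjusted threshold of 0.05. The exact permutation test of 3 against 3 strains, which cannot give a two-sided P under 0.1, gave 0.3 for *Mmp13*, 0.3 for *Mmp3* and 1 for *Mmp9*. Without normalization *Mmp13* was higher in healers by 1.66 (adjusted P = 0.0479), in strains whose reference genes also differed.

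Over the 8 strain means *Mmp3* and *Mmp13* were correlated at r = 0.669 and rho = 0.738. The exact permutation P were 0.0736 and 0.0458, and that of r was 0.318 after adjustment over the 66 relations of *Mmp3*. Both come from 1 panel and the same homogenates, so they share the regression and any error of the reference genes. With LGXSM-6 and LGXSM-33 left out, the strains whose *Mmp3* lay farthest from the median, r was 0.487 (exact permutation P = 0.343), and with LGXSM-6 and LG/J left out, farthest in *Mmp13*, it was 0.765 (exact permutation P = 0.0778). Within strains, the deviations of the 76 assay replicates from their strain means correlated at r = 0.328, a description over signals that are not independent. No relation of *Mmp9* with either was detected over 8 strains. With *Mmp3* r was 0.102 (exact permutation P = 0.810) and rho -0.119 (P = 0.793), and with *Mmp13* r was 0.0499 (exact permutation P = 0.901) and rho 0.0714 (P = 0.882). Without C57BL/6J and LGXSM-5 these r were 0.641 and 0.609 (exact permutation P = 0.178 and 0.208). The r of *Mmp9* with *Mmp3* was 0.125 without LGXSM-6 and LGXSM-33, and that with *Mmp13* was -0.177 without LGXSM-6 and LG/J. Without normalization the r of *Mmp9* was 0.511 with *Mmp3* and 0.686 with *Mmp13* (adjusted P = 0.211 and 0.167, exact permutation). With medians in place of means these r were 0.418 and 0.0761.

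**Figure D5:**
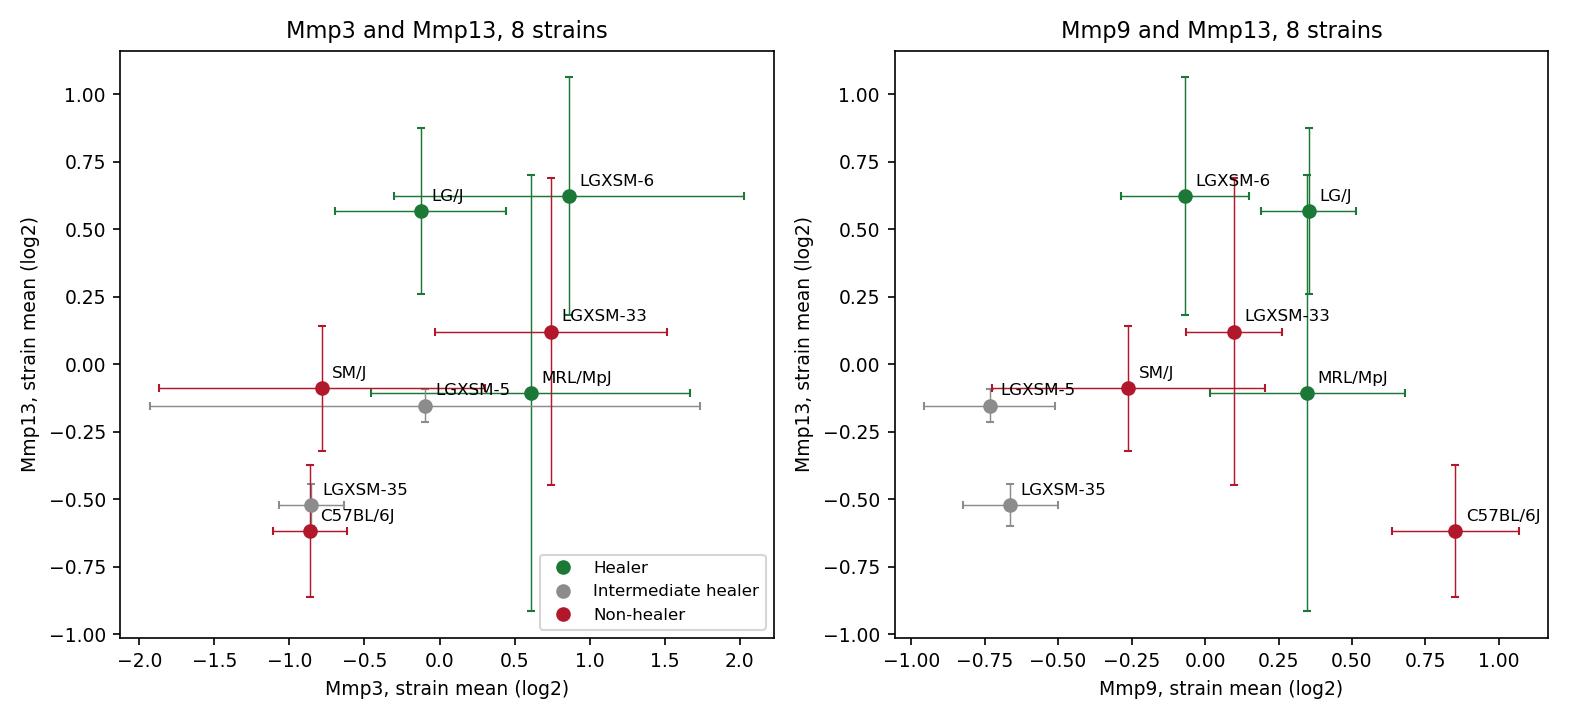
Strain means of normalized expression (log2) of *Mmp3* against *Mmp13* (left) and of *Mmp9* against *Mmp13* (right), with 1 point per strain coloured by healing class and bars for the SD between run means (3 or 4 runs). LGXSM-6 is highest and C57BL/6J lowest in both *Mmp3* and *Mmp13* (r = 0.669), and C57BL/6J, lowest in *Mmp13*, is highest in *Mmp9* (r = 0.0499).

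The mRNAs whose strain pattern was most like that of *Mmp13* were *Col2a1* (r = 0.906), which encodes type II collagen, a substrate of the enzyme, *Runx2* (r = 0.898), an osteoblast and hypertrophic chondrocyte transcription factor, and *Cxcl12* (r = 0.861), a chemokine of bone marrow stroma. The least alike was *Cebpb* (r = -0.799), a transcription factor of inflammatory responses. Each had an adjusted P of 0.106 from the exact permutation test. The rho values were 0.833, 0.857, 0.810 and -0.762 (exact permutation P = 0.0154, 0.0107, 0.0218 and 0.0368, unadjusted). Without LGXSM-6 and LG/J the values of r were 0.654, 0.716, 0.892 and -0.882, and the exact permutation P over the 6 strains left were 0.153, 0.133, 0.0139 and 0.0139.

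For *Mmp3* the most alike were *Sox5* (r = 0.876), a chondrocyte transcription factor, the aggrecanase *Adamts4* (r = 0.860) and the cytokine signal transducer *Stat3* (r = 0.856), each with an adjusted P of 0.170, and the least alike was *Ccl3* (r = -0.707, adjusted P = 0.276). *Sox5* was measured in the second panel and the others in the first. The rho values were 0.833, 0.786, 0.833 and -0.548 (exact permutation P from 0.0154 to 0.171, unadjusted). Without LGXSM-6 and LGXSM-33 r was 0.712, 0.805, 0.671 and -0.764, with exact permutation P from 0.0667 to 0.147 over the 6 strains left.

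For *Mmp9* the most alike were the autophagy gene *Atg7* (r = 0.844, adjusted P = 0.643), *Col10a1* (r = 0.725, adjusted P = 0.745) and *Ihh* (r = 0.664, adjusted P = 0.745), and the least alike was the bone morphogenetic protein antagonist *Chrdl1* (r = -0.683, adjusted P = 0.745). *Col10a1* and *Ihh* mark hypertrophic and prehypertrophic chondrocytes of the growth plate. The rho values were 0.762, 0.738, 0.714 and -0.595 (exact permutation P from 0.0368 to 0.132, unadjusted). Without C57BL/6J and LGXSM-5 r was 0.704, 0.427, 0.686 and -0.309, with exact permutation P from 0.124 to 0.531 over the 6 strains left. The mRNAs named as most or least alike for *Mmp13*, *Mmp3* and *Mmp9* were picked for their r over the same strain means. Their unadjusted P, those of rho and those over 6 strains included, therefore describe them and are no separate test. After adjustment 0 of the 66 correlations passed for each member, while 9 for *Mmp3*, 2 for *Mmp9* and 10 for *Mmp13* had an exact permutation P under 0.05 before it.

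Other proteases of the matrix were measured beside the members. *Adamts5*, the main aggrecanase of mouse cartilage, gave a median signal of 236 and differed between strains over assay replicates (11 of 28 pairs). *Adamts4* gave a median of 16.3 (5 pairs), and *Mmp1a*, an interstitial collagenase, gave 10.3 (1 pair) and did not pass the F test (adjusted P = 0.182). Over all mRNAs 29.5% of pairs were called, and over run means these 3 were called in 0 pairs. Of the 3, 2 passed the F test over assay replicates and 0 over run means, against 55 and 10 of all 67 mRNAs. In the healer and non-healer pairs only *Adamts5* was called, higher in MRL/MpJ than in C57BL/6J, where 17.9% of all mRNAs passed, by 0.41 (adjusted P = 0.00851), with an adjusted P of 0.433 over run means.

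Of the 6 matrix proteins and collagens, which include substrates of the members, all 6 passed the F test over assay replicates and 0 over run means, beside 82.1% and 14.9% of all mRNAs. Their strain ranges had a median of 1.32 in log2, against 0.54 over all mRNAs. Over assay replicates *Col2a1* differed in 14 of 28 pairs and ran from MRL/MpJ to LGXSM-6 over 1.59, and *Acan*, which encodes the large proteoglycan of cartilage, differed in 12. Of all tests of strain pairs 29.5% passed. Over run means both differed in 0 pairs, where 3.2% of all tests passed. Single matrix mRNAs were called in the healer pairs, where 28.4% of all mRNAs passed in LG/J and SM/J, 17.9% in MRL/MpJ and C57BL/6J and 22.4% in LGXSM-6 and LGXSM-33. In the pair LGXSM-6 and LGXSM-33, *Col2a1* was higher in the healer by 0.72 (adjusted P = 0.0157), and in LG/J and SM/J *Acan* was higher in the healer by 0.81 (adjusted P = 0.0368). In MRL/MpJ and C57BL/6J *Col1a1*, the chain of type I collagen, was lower in the healer, at -0.36 (adjusted P = 0.0415). Over run means none of these 3 differences passed (adjusted P = 0.490, 0.489 and 0.559).

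Of 8 regulators of metalloproteinase genes, all 8 passed the F test over assay replicates and 0 over run means, beside the same 82.1% and 14.9%, with a median of 10 called pairs against 8 over all mRNAs. The shares of all mRNAs called in the 3 pairs, 28.4%, 17.9% and 22.4%, apply to the regulators too. *Runx2* was higher in the healer LG/J than in SM/J by 0.44 (adjusted P = 6.9e-04) and in LGXSM-6 than in LGXSM-33 by 0.28 (adjusted P = 0.00948), and differed by 0.22 between MRL/MpJ and C57BL/6J (adjusted P = 0.0835). *Cebpb* was lower in LG/J than in SM/J, at -0.62 (adjusted P = 0.0127), and lower in MRL/MpJ than in C57BL/6J, at -0.48 (adjusted P = 0.0407). *Il6* was higher in LG/J than in SM/J by 0.41 (adjusted P = 0.0408), at a median signal of 9, and *Tgfb1* was lower, at -0.38 (adjusted P = 0.00100). Over run means none of these passed, with adjusted P of 0.233 and 0.433 for *Runx2*, 0.369 and 0.503 for *Cebpb*, 0.481 for *Il6* and 0.214 for *Tgfb1*. *Nfkb1*, *Epas1*, *Ddr2* and *Stat3* were called in none of the 3 pairs.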

How the data were processed

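Messenger RNA in homogenates of fixed knee-joint sections was measured with the QuantiGene Plex assay in 2 panels of 33 and 34 target mRNAs. The deposited log10 values are of 2 kinds, raw signals and residuals that the authors obtained by regressing each target on the reference genes of the same panel. Background was subtracted according to the methods, but the files do not say whether the raw signals are from before or after that step. Tables of strain averages and of the authors' fold changes were not used, and 0 columns were left without a strain.

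Residuals were turned into log2 units here. Strains were compared with limma 3.58.1 in R 4.3.3, with 1 factor of 8 strains per panel. The Benjamini-Hochberg adjustment was made over 67 mRNAs for F tests, for differences between pairs and for healing class (fitted on strain means), over 1876 tests for strain pairs, and over 66 relations for correlations. Exact permutation tests were two-sided and used Python 3.11.15, numpy 2.4.6, scipy 1.17.1 and pandas 2.3.3. The division of variance into runs, run means and the fit without SM/J signals whose *Gapdh* was under 25% of the panel median were added after seeing the data, as were all alternatives for differences between healer pairs and for lines outside both parents. The limma fits over assay replicates and over strain means and the division of variance were tested on simulated data. In the simulation of the fits over assay replicates the noise was independent between signals, without runs. It therefore does not show their error rate where runs differ. The alternatives were a plain ratio to the reference genes, raw signals, recomputed residuals, residuals on *Gapdh* and *Hprt1* alone, a filter at a median signal of 20, another variance model, Tukey's test over assay replicates (the methods applied it to averages per mouse), exact permutation, medians, Spearman correlation, and leaving out replicates or strains.

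The 3 members, the gene lists and the tests were chosen with earlier results of these data known. Named besides them were, for each member, the 3 mRNAs with the highest and the 1 with the lowest r over strain means.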

Additional observations from a re-analysis of the deposited data

Results flagged for a closer look

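A pair of results met the rule for effects that differ between comparisons of a healer with a non-healer, both in *Mmp9*. The difference of LG/J and SM/J (0.61 in log2) exceeded that of MRL/MpJ and C57BL/6J (-0.50) by 1.12 ± 0.16 (SE, adjusted P = 7.4e-08, limma), and by 0.86 without the SM/J signals of low *Gapdh*. It exceeded that of LGXSM-6 and LGXSM-33 (-0.17) by 0.78 ± 0.15 (adjusted P = 4.0e-05). Over run means the adjusted P were 0.0369 and 0.143. A single signal far from the others was found in 0 of 18 groups of 8 or 9 signals. That test cannot find a run that stands apart, and LGXSM-6 and LGXSM-33, with 12 signals each, were not tested.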

How the results depend on the processing

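Across the alternatives, 339 recomputed values kept their direction and their side of the threshold or stayed within the replicate spread, 18 moved, 18 changed sign, 14 were no longer and 6 newly past the threshold. Over run means, 10 mRNAs passed the F test, and *Mmp3*, *Mmp9* and *Mmp13* were called in 0, 12 and 2 strain pairs. H2 of *Mmp3* was then 21.9%, *Mmp9* in LG/J and SM/J against LGXSM-6 and LGXSM-33 (0.78) was no longer called, and 0 lines were outside both parents for *Mmp9*. With the plain ratio to the reference genes, *Mmp3* was called in 4 pairs, its H2 was 16.9%, and its differences in LG/J and SM/J and in LGXSM-6 and LGXSM-33 turned to -0.14 and -0.46. For *Mmp9* that ratio gave 0.96 in LGXSM-6 and LGXSM-33, 0.43 for healers minus non-healers, an r of -0.25 with *Mmp3*, 0 lines outside both parents, 0.21 for LG/J and SM/J against LGXSM-6 and LGXSM-33, and -1.80 for MRL/MpJ and C57BL/6J against the same lines, now past the threshold. Without normalization *Mmp3* was called in 17 pairs, its H2 was 60.7%, 2 lines were outside both parents, its r with *Mmp13* was 0.89 (adjusted P = 0.0202, exact permutation), its difference in LG/J and SM/J was 1.03 (adjusted P = 0.0225, limma), and MRL/MpJ and C57BL/6J exceeded LGXSM-6 and LGXSM-33 by 1.54 (adjusted P = 0.0180, limma). Without normalization *Mmp9* had an H2 of 51.9%, 0.24 in MRL/MpJ and C57BL/6J, 1.60 in LGXSM-6 and LGXSM-33, 1.26 for healers minus non-healers, 1 line outside both parents (LGXSM-6, above them, and neither of those below), and 1.71 and 0.35 for LG/J and SM/J against the other pairs, neither called. *Mmp13* had 1 line outside both parents and 1.66 for healers minus non-healers (adjusted P = 0.0479, limma). The difference of *Mmp13* between MRL/MpJ and C57BL/6J against LGXSM-6 and LGXSM-33 (0.01) turned to -0.14 with the ratio, -0.15 without normalization and -0.11 with residuals on *Gapdh* and *Hprt1*. Lines outside both parents for *Mmp3* numbered 1 with those residuals, 1 with the filter on low signals and 1 without the low *Gapdh* signals. Spearman's rho of *Mmp3* and *Mmp9* was -0.12. The cause was not tested for any of these.

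Leaving out 1 strain at a time, the healer difference of *Mmp9* ran from -0.26 to 0.29 and turned without C57BL/6J (0.29) and without LGXSM-6 (0.12). That of *Mmp3* (0.75) ran from 0.47 without C57BL/6J to 1.27 without LGXSM-33, and was 0.16 with the plain ratio. That of *Mmp13* (0.56) ran from 0.35 without C57BL/6J to 0.79 without MRL/MpJ. The r of *Mmp9* with *Mmp3* ran from -0.14 (without LGXSM-35) to 0.57, and with *Mmp13* from -0.22 to 0.61, turning without LG/J (-0.11), LGXSM-5 (-0.02) and LGXSM-35 (-0.22). Without each assay replicate number in turn, *Mmp3*, *Mmp9* and *Mmp13* were called in 9 to 11, 21 to 24 and 13 to 18 pairs. No paired analysis was possible because each strain is 1 sample and signal numbers do not tie signals of different strains together. Precision over run means is limited to 3 or 4 runs per strain.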
